A study of Mus musculus with 20 samples.

Results

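The 35 genes described here make, use or sense the folding machinery of the endoplasmic reticulum (ER) and were followed in mouse liver across 4 groups of 5 mice. They were taken by symbol, 35 of 18193 genes with a probe set annotated to that gene only, and all 35 were among the 12947 genes whose level allowed a test. By role they were 15 folding chaperones, 7 genes of ER-associated degradation, 3 of protein entry into the ER, 4 sensors and transcription factors of the unfolded protein response, and 6 genes of the integrated stress response. Probe sets of 10 genes were single, and for the other 25 the probe set with the highest mean was used.

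The mice were male BALB/c, 6 weeks old on arrival, with 1 array of liver RNA per mouse. In the STZ group diabetes was induced with 1 intraperitoneal injection of streptozotocin (STZ), which kills the pancreatic beta cells that make insulin, at 185 mg/kg, and the mice ate plain AIN93G diet for 14 days. The groups with 0.1% and 0.5% phloridzin were STZ mice that ate the same diet with phloridzin, a plant compound that blocks the cotransport of sodium and glucose, for the same 14 days. At entry the blood glucose of the mice in these 3 groups was 330 to 590 mg/dL. Untreated mice had no injection and no phloridzin, so that diabetes, STZ itself and its injection cannot be told apart. Each group had 6 mice in the study and 5 arrays.

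The ER folds and modifies the proteins that hepatocytes secrete in bulk, albumin and the lipoproteins among them. When unfolded proteins gather there, the sensors encoded by Ern1, Atf6 and Eif2ak3 start the unfolded protein response. Ern1 splices the mRNA of the transcription factor Xbp1, Atf6 is cut to release one, and Eif2ak3 phosphorylates the initiation factor eIF2, which lowers translation and favours that of Atf4. The targets of Xbp1 and Atf6 are mainly chaperones, degradation factors and entry factors, and those of Atf4 include Ddit3, Asns, Trib3 and Chac1. Array probe sets read total mRNA, so neither Xbp1 splicing nor sensor activity was measured.

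Each value is a linear signal, scaled to a trimmed mean of 100 on each array. Array medians were 11.2 to 17.1. Differences are on the log2 scale of the signal plus 16, with limma and Benjamini-Hochberg adjustment over all 12947 genes, and genes with an adjusted p under 0.05 are named as called. Folds are of the signal plus 16, which understates changes of low signals. The number of arrays limits the precision, and the half-width of the 95% interval was 0.30 log2 units at the median gene. Of 8 measured hepatocyte markers, 8 were above the highest array median. STZ replicate 1 stood apart with a signal of 48.9 for Cyp4a14, against a median of 2825 in STZ liver, and 0.1% phloridzin replicate 4 with the highest bioD spike-in signal, 14067. In bulk liver, fewer cells of a type and less RNA per cell cannot be told apart.

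Against untreated liver, more of these genes were lower than higher in each diabetic group, with and without phloridzin. In STZ liver 13 of 35 were called lower and 1 higher, where 6.89% of all genes were called lower and 6.9% higher. With 0.1% phloridzin 20 were lower and 2 higher (8.98% and 7.76% of all genes), and with 0.5% phloridzin 18 were lower and 1 higher (6.18% and 6.53%). The median difference of the 35 genes was −0.36, −0.46 and −0.44 in the order STZ, 0.1% and 0.5%, against −0.05, −0.04 and −0.01 over all genes. The 3 comparisons share the 5 untreated arrays, so their likeness is not independent. All 3 called 9 genes lower, namely Hspa5, Calr, Dnajb11, Sdf2l1, Syvn1, Sec61b, Xbp1, Ern1 and Ddit3, and 1 gene higher, Atf6. The share of all genes called in all 3 was not counted, so these genes are only named and their number has no background. In none of the 3 were Pdia3, Pdia4, Pdia6, P4hb, Herpud1, Sel1l, Derl1, Atf4, Ppp1r15a and Asns called.

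**Figure D1:**
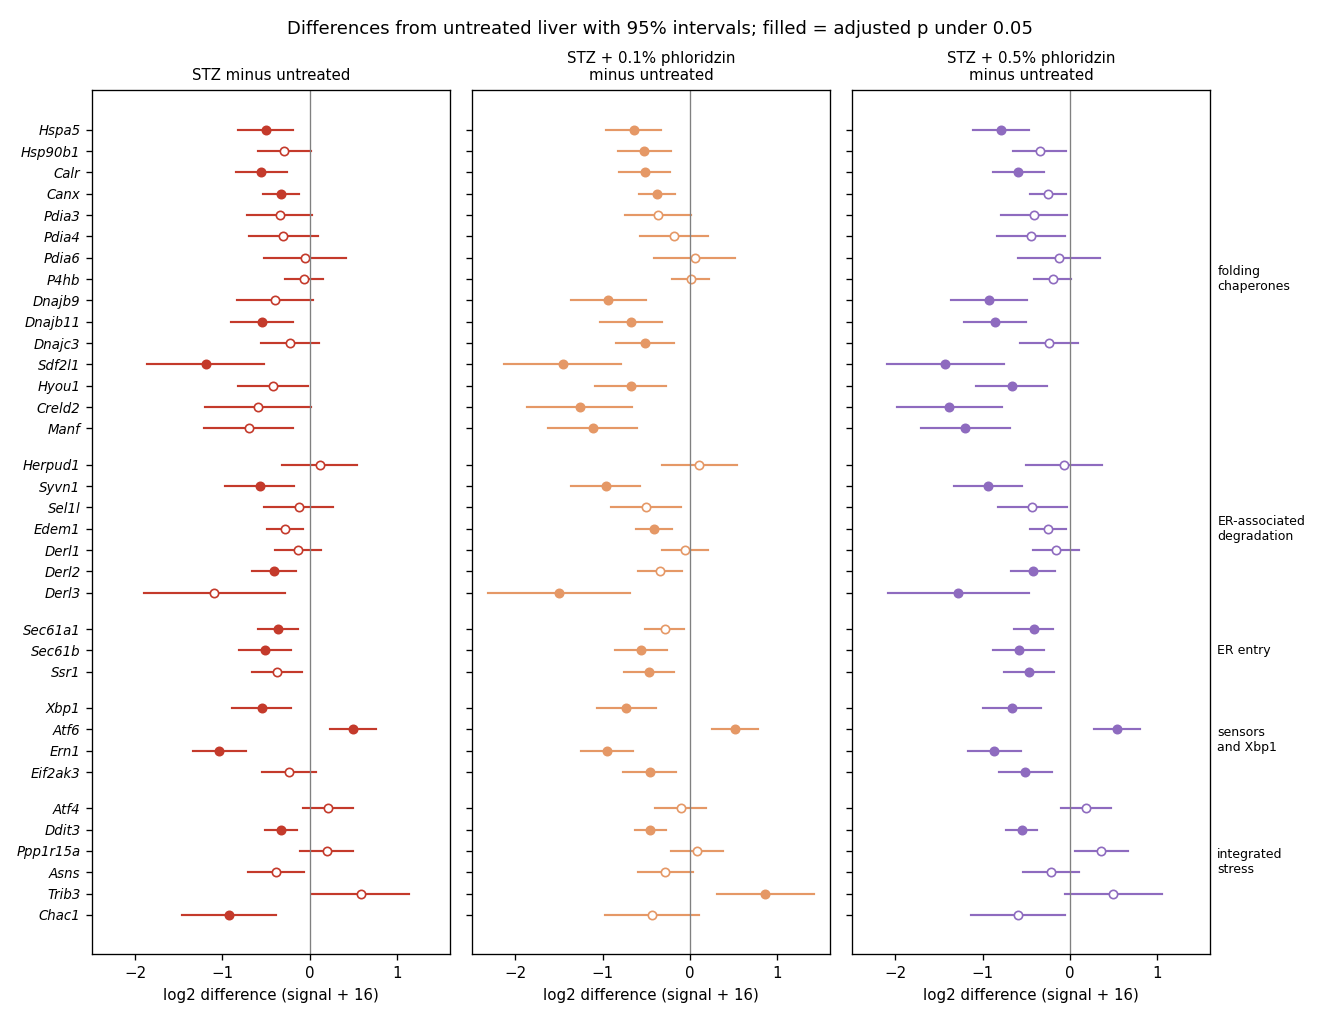
Log2 differences of the signal plus 16 from untreated liver for the 35 genes by role, for STZ, STZ with 0.1% and STZ with 0.5% phloridzin (points, with 95% intervals as lines; filled points have an adjusted p under 0.05). Filled points below 0 number 13, 20 and 18, and Atf6 is the gene filled above 0 in all 3 panels.

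Known control elements stand in the promoters of many of these genes. The ER stress response element, ERSE, is bound by Atf6 and Xbp1 with the factor NF-Y, and was searched on both strands as CCAAT and CCACG with any 9 bases between them. The RefSeq promoters of build GRCm38.p6 that were searched each hold 300 bases, most of them before the start site. The table held 30 of the 35 genes, and lacked Hyou1, Manf, Derl1, Sec61a1 and Atf6. An ERSE was found in 9 of 30 (30%), against 0.137% of 27025 genes with a promoter in the table. The related element ERSE-II, ATTGG and CCACG with any 1 base between them, was found in 2 of 30, against 0.0444% of genes. The amino acid response element of Atf4 and its partners, TGATGNAA, was found in 4 of 30 (13.3%), against 4.51% of genes. The element TGACGTGG, a core of the unfolded protein response element, was found in 0 of 30 and in 0.714% of genes. The matches of different elements did not overlap, and a match is a description of letters, not of binding. Both the genes and the elements were taken from what is known of this response, so these shares are not independent evidence.

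These stretches show the ERSE of some of the 9 genes that hold one, with the matched letters that are fixed in the motif in capitals, each written 5′ to 3′ along the gene's own strand. The matches of Hsp90b1, Pdia6 and Dnajc3 are not printed. Against untreated liver, Pdia6 was called in no comparison, and Hsp90b1 and Dnajc3 with 0.1% phloridzin only. CGTGG and ATTGG are the 2 ends of the element in the opposite orientation, and CCACG and CCAAT those in the same orientation as the gene.
Hspa5, chr2:34772017-34772051, plus strand: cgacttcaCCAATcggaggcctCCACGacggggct
Calr, chr8:84847067-84847101, minus strand: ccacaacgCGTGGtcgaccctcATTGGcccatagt
Canx, chr11:50325792-50325826, minus strand: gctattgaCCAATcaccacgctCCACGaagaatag
Creld2, chr15:88819512-88819546, plus strand: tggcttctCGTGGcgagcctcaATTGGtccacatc
Syvn1, chr19:6046524-6046558, plus strand: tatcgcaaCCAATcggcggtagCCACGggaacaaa
Derl3, chr10:75893234-75893268, plus strand: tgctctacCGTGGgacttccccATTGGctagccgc
The ERSE-II of Dnajb11 lay past the start site and that of Herpud1 before it, with the fixed letters again in capitals.
Dnajb11, chr16:22857844-22857870, plus strand: cggcggcgATTGGcCCACGcctggctg
Herpud1, chr8:94386369-94386395, plus strand: gggcgctgATTGGgCCACGttggacac
The whole promoter of Hspa5, the gene of the main ER Hsp70 chaperone, shows its exact ERSE match, again in capitals, in the context of the bases around it. Elements that differ from the motif by a letter were not searched for and are not marked.
Hspa5, chr2:34771840-34772139, plus strand: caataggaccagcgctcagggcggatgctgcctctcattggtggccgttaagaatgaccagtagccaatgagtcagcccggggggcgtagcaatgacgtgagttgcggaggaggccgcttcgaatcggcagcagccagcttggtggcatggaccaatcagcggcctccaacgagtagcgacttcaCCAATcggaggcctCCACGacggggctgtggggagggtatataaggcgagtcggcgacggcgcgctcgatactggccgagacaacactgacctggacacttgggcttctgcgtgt

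Among the 11 genes with an ERSE or ERSE-II, 5 were called lower in STZ liver, 9 with 0.1% and 6 with 0.5% phloridzin, with median differences of −0.51, −0.52 and −0.59. Among the 19 promoters without one, 7, 9 and 9 genes were called lower, with medians of −0.35, −0.43 and −0.44, and 1 was called higher with 0.1% phloridzin. Over all genes, 6.89%, 8.98% and 6.18% were called lower, and 7.76% higher with 0.1% phloridzin. Both kinds of promoter therefore held lower genes, and the difference between them was not tested.

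Of the 15 folding chaperones, the largest of the 5 roles, 5 (33.3%) were called lower in STZ liver, 11 (73.3%) with 0.1% and 8 (53.3%) with 0.5% phloridzin, and 0 were higher. The smaller roles of entry and sensing had shares as high or higher in some comparisons, with 2, 2 and 3 of 3 entry genes and 2, 3 and 3 of 4 sensors lower. In STZ liver these 5 were Hspa5, Calr, Canx, Dnajb11 and Sdf2l1. The groups with phloridzin added Dnajb9, Hyou1, Creld2 and Manf at both doses, and Hsp90b1 and Dnajc3 at 0.1%. Differences of all 15 lay below 0 in STZ and in 0.5% phloridzin liver, and of 13 in 0.1% phloridzin liver.

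Hspa5, the ER Hsp70 that binds unfolded chains and holds the sensors inactive, had signals of 6490.2, 3755, 4370.2, 3830.2 and 4717 in STZ liver. With 0.1% phloridzin they were 5204, 3484, 4095, 4978 and 3214, with 0.5% 2931, 4155, 3864, 3952 and 3872, and in untreated liver 7168, 6061, 6581, 5789 and 6736. Only STZ replicate 1 reached the range of the untreated mice, and neither phloridzin group overlapped it. Hspa5 was 1.42-fold lower in STZ liver (limma log2 difference −0.51 ± 0.15, SE, 5 mice in each group, adjusted p = 0.0314), 1.56-fold lower with 0.1% (−0.64, adjusted p = 0.00697) and 1.73-fold lower with 0.5% phloridzin (−0.79, adjusted p = 0.00235).

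Sdf2l1, an ER protein that works with the Hspa5 cochaperone Dnajb11, had the largest difference of the chaperones in all 3 comparisons. Its signals were 264, 104, 85.5, 72.6 and 115 in STZ liver, 203, 98.8, 77.1, 92.4 and 47.0 with 0.1% phloridzin, 56.2, 179, 88.2, 108 and 81.7 with 0.5%, and 481, 226, 274, 244 and 258 in untreated liver. STZ replicate 1 alone lay within the untreated range. Sdf2l1 was 2.29-fold lower in STZ liver (log2 −1.19 ± 0.32, limma adjusted p = 0.0179), 2.74-fold lower with 0.1% (−1.46, adjusted p = 0.0045) and 2.69-fold lower with 0.5% phloridzin (−1.43, adjusted p = 0.00657).

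Creld2, a small ER protein induced by unfolded proteins, was 2.40-fold lower with 0.1% (log2 −1.26 ± 0.29, limma adjusted p = 0.00577) and 2.61-fold lower with 0.5% phloridzin (−1.38, adjusted p = 0.00404). Its signals were 412, 218, 403, 356 and 226 with 0.1%, 154, 311, 385, 342 and 297 with 0.5%, and 1039, 629.7, 931, 499 and 889 in untreated liver, so that these groups did not overlap. In STZ liver they were 1054, 369, 529, 311 and 506, spanning the untreated range, and the difference of −0.59 was not called (adjusted p = 0.184).

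Manf, an ER-resident and secreted partner of Hspa5, had its lowest mean with 0.5% phloridzin. Its signals were 2569.6, 1180.2, 1647, 1006 and 1752 in STZ liver, 1839, 999.8, 1235, 1141 and 808 with 0.1% and 637, 1463, 1223, 1283 and 1041 with 0.5% phloridzin. In untreated liver they were 3159.8, 2516, 2703, 2112 and 2253. All 10 phloridzin mice lay below all untreated mice, and of the STZ mice replicate 1 did not. Manf was 2.16-fold lower with 0.1% (log2 −1.11 ± 0.25, limma adjusted p = 0.0044) and 2.30-fold lower with 0.5% (−1.20, adjusted p = 0.00328), and in STZ liver its −0.70 just missed the threshold (adjusted p = 0.0617).

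J-domain cochaperones bring substrates to Hspa5. Dnajb9 had signals of 2028, 1313, 2187, 922 and 1535 in STZ liver, 948, 716, 1353, 1052 and 1304 with 0.1% and 967, 923, 1250.2, 888 and 1317 with 0.5% phloridzin, against 2242, 1767, 2279, 1612 and 2280.4 in untreated liver. The STZ mice were spread over both ranges (log2 −0.40, limma adjusted p = 0.218), and both phloridzin groups lay wholly below the untreated mice (−0.93 ± 0.21, adjusted p = 0.00469 and −0.92, adjusted p = 0.0064). Dnajb11, which holds nascent chains with Sdf2l1, had signals of 522, 317, 359, 335 and 392 in STZ liver, 488, 323, 299, 413 and 260.4 with 0.1% and 217, 339, 358, 335 and 289 with 0.5% phloridzin, against 719, 563, 551, 457 and 549.9 in untreated liver. Mice with 0.5% phloridzin all lay below the untreated mice, and replicate 1 of each of the other diabetic groups did not. Dnajb11 was called in all 3 comparisons (log2 −0.55, −0.67 and −0.86, SE 0.17 each, limma adjusted p = 0.0365, 0.0107 and 0.00287).

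Dnajc3, which also restrains Eif2ak3, had signals of 921, 995, 1052, 630.1 and 1238 in STZ liver, 830.2, 675, 1075, 633 and 718 with 0.1% and 798, 1029.8, 999.5, 771 and 1118 with 0.5% phloridzin, against 1235, 1078, 1094, 1103 and 1033 in untreated liver. All groups overlapped. Dnajc3 was called with 0.1% phloridzin (log2 −0.51 ± 0.16, limma adjusted p = 0.0328), with −0.22 in STZ (adjusted p = 0.381) and −0.24 in 0.5% phloridzin liver (adjusted p = 0.354). That call was lost with the mean of its probe sets (−0.36, adjusted p = 0.0756).

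The lectin chaperones Calr and Canx hold newly made glycoproteins. Calr signals were 5029.7, 3727, 3453, 3999 and 4025 in STZ liver, 5429, 4505, 4010.5, 3972 and 3067 with 0.1% and 3238, 4956, 3614, 4559.6 and 3497 with 0.5% phloridzin. All were below the 6304, 5726, 5568, 5751 and 6227 of untreated liver (log2 −0.56, −0.52 and −0.59, SE 0.14 each, limma adjusted p = 0.0123, 0.0159 and 0.00934). With the mean of its probe sets Calr was not called in STZ (−0.38, adjusted p = 0.0706) or 0.1% phloridzin liver (−0.27, adjusted p = 0.186). Canx signals were 2232, 2261, 2442, 1847 and 2203 in STZ liver, 2333, 1893, 2278, 2166 and 1958 with 0.1% and 1917, 2491, 2371, 2427 and 2399 with 0.5% phloridzin, all below the 3055, 2623, 2827, 2659 and 2613 of untreated liver. The Canx difference was called in STZ liver (−0.33 ± 0.10, adjusted p = 0.0294) and with 0.1% (−0.37, adjusted p = 0.0122), and not with 0.5% phloridzin (−0.25, adjusted p = 0.0967). Neither Canx call was left with the mean of its probe sets (−0.22 in both, adjusted p = 0.099 and 0.0994).

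Hyou1, which recharges Hspa5 with ATP, had signals of 622, 492, 578, 302 and 593 in STZ liver, 512, 314, 571, 434 and 318 with 0.1% and 335, 519, 408, 424 and 443 with 0.5% phloridzin, against 875, 646, 668, 523 and 729 in untreated liver. Mice with 0.5% phloridzin did not overlap the untreated mice. Hyou1 was called with 0.1% (log2 −0.68 ± 0.19, limma adjusted p = 0.02) and 0.5% phloridzin (−0.67, adjusted p = 0.0287), with −0.42 in STZ liver (adjusted p = 0.154). Both Hyou1 calls were lost with the mean of its probe sets (−0.44, adjusted p = 0.129 and −0.49, adjusted p = 0.105). Hsp90b1, the ER Hsp90, had signals of 3097, 3317, 2823, 1864 and 2691 in STZ liver, 2977, 1980.3, 2477, 1998 and 2261 with 0.1% and 2138, 2599.8, 2664, 2667 and 3062 with 0.5% phloridzin, against 3881, 3466, 3306, 3090.2 and 2929 in untreated liver. All groups overlapped the untreated mice. Hsp90b1 was called with 0.1% phloridzin (−0.52 ± 0.15, adjusted p = 0.0181), with −0.29 in STZ and −0.35 in 0.5% phloridzin liver. Its second probe set differed by 0.09 with 0.1% phloridzin, and with the mean of both the call was lost (−0.21, adjusted p = 0.427).

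The 4 protein disulfide isomerases, which join and shuffle cysteines, were called in none of the 3 comparisons. P4hb differed by −0.07, 0.01 and −0.20 in the order STZ, 0.1% and 0.5%, with SE of 0.10, and Pdia6 by −0.05, 0.06 and −0.12 with SE of 0.22. Pdia3 (−0.35, −0.37 and −0.41) and Pdia4 (−0.30, −0.18 and −0.44) lay lower, with adjusted p of 0.13 or more. Pdia3 was called with 0.1% phloridzin when its probe sets were averaged (−0.48, limma adjusted p = 0.033). A second, dimmer probe set of Pdia6 differed by −0.67 in all 3 comparisons, unlike the one used.

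**Figure D2:**
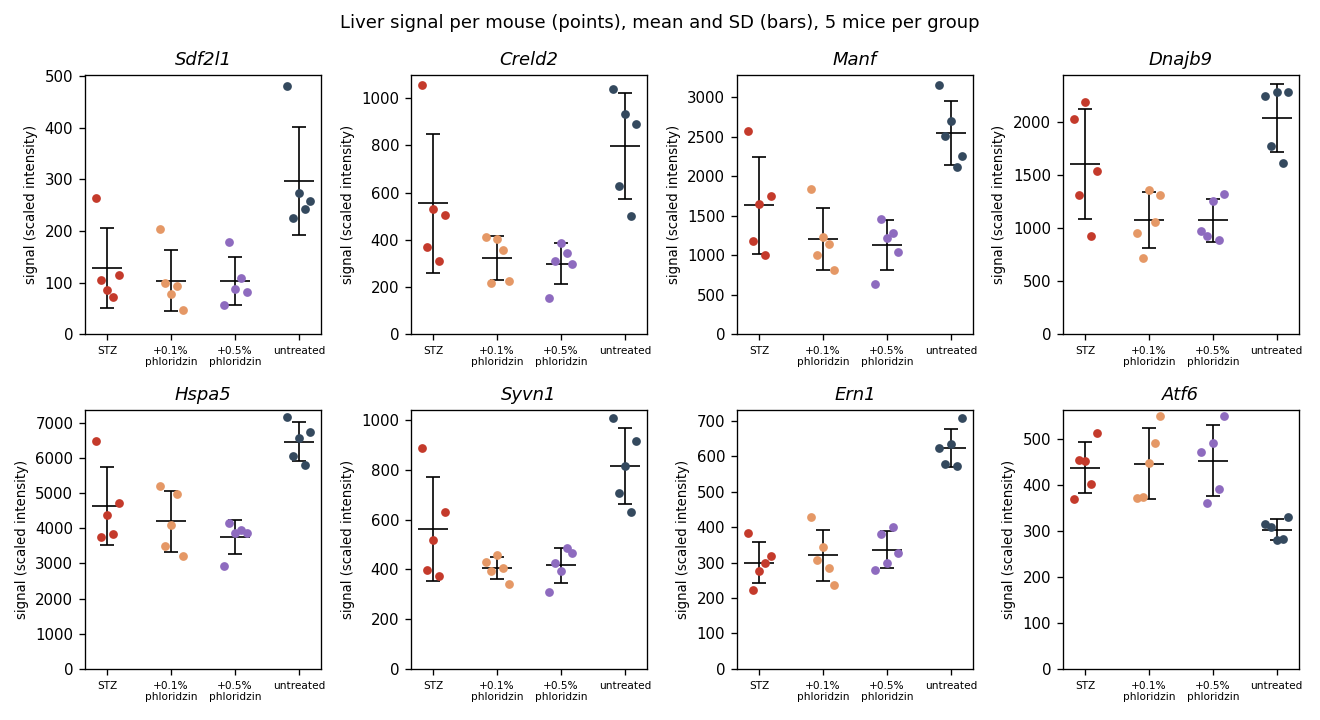
Signal per mouse (points, scaled intensity on a linear axis), with mean and SD, for 6 chaperone and degradation genes, Ern1 and Atf6 in STZ, STZ with 0.1% and with 0.5% phloridzin, and untreated liver. Sdf2l1, Creld2, Manf, Hspa5 and Syvn1 each have 1 high STZ mouse, replicate 1, and Ern1 and Atf6 separate every diabetic mouse from every untreated mouse.

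ER-associated degradation moves misfolded proteins out of the ER to the proteasome. Of its 7 genes, 2 were called lower in STZ liver (Syvn1 and Derl2), 3 with 0.1% phloridzin (Syvn1, Edem1 and Derl3) and 3 with 0.5% (Syvn1, Derl2 and Derl3), and 0 were higher. Syvn1, the membrane ubiquitin ligase at its centre, had signals of 886, 396, 518, 374 and 631 in STZ liver, 431, 395, 456, 404 and 340.0 with 0.1% and 310.0, 426, 392, 487 and 465 with 0.5% phloridzin, against 1007, 705, 815, 628 and 915 in untreated liver. STZ mice overlapped the untreated ones and phloridzin mice did not. Syvn1 was 1.49-fold lower in STZ liver (log2 −0.57 ± 0.19, limma adjusted p = 0.0462), 1.95-fold lower with 0.1% (−0.97, adjusted p = 0.00181) and 1.92-fold lower with 0.5% phloridzin (−0.94, adjusted p = 0.00295). Its STZ call was lost in 18 of the 31 alternatives tried, and its phloridzin calls in 0.

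Derl3, a Derlin of the exit channel best known from secretory cells, had signals of 135, 50.8, 35.4, 13.0 and 33.1 in STZ liver, 52.7, 16.3, 38.5, 27.3 and 18.8 with 0.1% and 6.38, 91.3, 40.5, 51.2 and 27.2 with 0.5% phloridzin, against 133, 86.1, 99.6, 73.8 and 192 in untreated liver. It was called with 0.1% (log2 −1.50 ± 0.39, limma adjusted p = 0.0118) and with 0.5% phloridzin (−1.28, adjusted p = 0.0356) and differed by −1.09 in STZ liver (adjusted p = 0.0661). Several of these signals lie near the highest array median of 17.1, where values are close to background.

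Derl2, another Derlin, had signals of 1669, 1362, 1343, 1416 and 1193 in STZ liver, 1886, 1531, 1286, 1431 and 1237 with 0.1% and 1118, 1652, 1336, 1489 and 1342 with 0.5% phloridzin, against 1949.9, 1854, 1924, 1715 and 1798 in untreated liver. Replicate 1 with 0.1% phloridzin was the one diabetic mouse within the untreated range. Derl2 was called in STZ (log2 −0.41, limma adjusted p = 0.0285) and 0.5% phloridzin liver (−0.42, adjusted p = 0.0267), and in neither with the mean of its probe sets (−0.32, adjusted p = 0.165 and −0.36, adjusted p = 0.122). Edem1, which picks out misfolded glycoproteins, had signals of 804, 751, 794, 809 and 729.9 in STZ liver, 918, 610.4, 759.9, 614 and 693 with 0.1% and 722, 826, 813, 839 and 783 with 0.5% phloridzin, against 966, 857, 1043, 966 and 925 in untreated liver. It was called with 0.1% phloridzin (−0.41, adjusted p = 0.00857), and not in STZ (−0.28, adjusted p = 0.0653) or 0.5% phloridzin liver (−0.25, adjusted p = 0.106), whose mice all lay below the untreated ones. Edem1 was called in these as well when its probe sets were averaged (−0.30, adjusted p = 0.0256 and −0.32, adjusted p = 0.0204). The Syvn1 partner Sel1l (−0.12, −0.50 and −0.43), the remaining Derlin Derl1 (−0.13, −0.06 and −0.16) and the scaffold Herpud1 (0.12, 0.11 and −0.07) were not called. Other probe sets of Derl1 differed by −0.42, −0.58 and −0.59, by −0.09, −0.29 and −0.30, and by 0.07, 0.07 and 0.04. With the mean of its probe sets Derl1 was not called either (−0.14, −0.22 and −0.25, limma adjusted p = 0.377, 0.149 and 0.106). Herpud1 signals ran from 3839 to 5962 in STZ liver, from 3397 to 6034 with 0.1% and from 2630.1 to 5986 with 0.5% phloridzin, around the 4082 to 5402 of untreated liver.

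The genes of protein entry were lower as well. Sec61b, a subunit of the channel through which new chains enter the ER, had signals of 1646, 1595, 1356, 1226 and 1278 in STZ liver, 1663, 1308, 1489, 1391 and 1044 with 0.1% and 1038, 1777, 1401, 1382 and 1193 with 0.5% phloridzin, against 2040.5, 1968, 2189, 1657 and 2281 in untreated liver. Only untreated replicate 4 was as low as the highest diabetic mice. It was called in all 3 comparisons (log2 −0.51, −0.56 and −0.59, SE 0.14 each, limma adjusted p = 0.0214, 0.0107 and 0.0102). The channel-forming subunit Sec61a1 had signals of 1291, 1101, 1064, 1145 and 1281 in STZ liver, 1420.1, 1097, 1206, 1404 and 1098 with 0.1% and 955, 1323, 1085, 1139.7 and 1188 with 0.5% phloridzin, against 1601, 1398, 1581, 1328 and 1686 in untreated liver. Replicates 1 and 4 with 0.1% phloridzin reached the untreated range and no mouse of the other diabetic groups did. It was called in STZ (−0.36, adjusted p = 0.0289) and 0.5% phloridzin liver (−0.41, adjusted p = 0.0152), with −0.29 at 0.1% (adjusted p = 0.0721). The STZ call of Sec61a1 was lost when its probe sets were averaged (−0.28, adjusted p = 0.151). Ssr1, of the complex that assists the channel, had signals of 1056, 844, 767, 809.8 and 895 in STZ liver, 1138, 847, 724, 826 and 635 with 0.1% and 685, 1003, 735, 923 and 769 with 0.5% phloridzin, against 1302, 1052, 1121, 1064 and 1150.5 in untreated liver. Replicate 1 of the STZ and of the 0.1% phloridzin group lay within the untreated range. It was called with 0.1% (−0.46, adjusted p = 0.0245) and 0.5% phloridzin (−0.47, adjusted p = 0.0293), with −0.38 in STZ liver (adjusted p = 0.0717).

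The sensors did not move one way. Xbp1, total mRNA of the factor that Ern1 activates by splicing, had signals of 3339, 2223, 2592, 2354 and 2453 in STZ liver, 2833, 2344, 2714, 2206 and 1520.2 with 0.1% and 1949.8, 2953, 2208, 3005 and 1949.9 with 0.5% phloridzin, all below the untreated 4040.4, 3682, 3698, 3419 and 4023. It was 1.46-fold lower in STZ liver (log2 −0.55 ± 0.16, limma adjusted p = 0.0267), 1.65-fold lower with 0.1% (−0.73, adjusted p = 0.0045) and 1.59-fold lower with 0.5% phloridzin (−0.67, adjusted p = 0.00985).

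Ern1, the nuclease sensor, had the smallest adjusted p of the 35 genes in STZ liver. Its signals were 383, 224, 276, 298 and 318 in STZ liver, 428, 307, 344, 285 and 238 with 0.1% and 278, 379, 300.1, 400.2 and 327 with 0.5% phloridzin, against 623, 579, 634, 573 and 708 in untreated liver, with no overlap. Ern1 was 2.05-fold lower in STZ liver (log2 −1.03 ± 0.15, limma adjusted p = 9.56e-05), 1.93-fold lower with 0.1% (−0.95, adjusted p = 0.00023) and 1.82-fold lower with 0.5% phloridzin (−0.87, adjusted p = 0.000715). The size rests on 1 bright probe set: with the mean of its probe sets the differences were −0.33 (adjusted p = 0.0463), −0.30 (adjusted p = 0.0622) and −0.25 (adjusted p = 0.139). The other probe sets in that mean had signals of 28.3, 21.9, 14.8 and 3.42, against 395 for the one used. The last of them lay below the limit set for a test.

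Atf6, the sensor that is itself cut into a transcription factor, was the one gene called higher in all 3 comparisons. Signals were 369, 454, 451, 401 and 512 in STZ liver, 371, 374, 447, 489.7 and 548 with 0.1% and 471, 360.0, 491, 391 and 549.7 with 0.5% phloridzin, all above the untreated 315, 308, 279, 282 and 330.3. Atf6 was 1.42-fold, 1.44-fold and 1.46-fold higher in that order (log2 0.50, 0.52 and 0.54, SE 0.13 each, limma adjusted p = 0.0116, 0.00792 and 0.00783). Its other probe sets differed by −0.01 to 0.23, and with the mean of probe sets no call was left (0.22, 0.24 and 0.31, adjusted p = 0.23, 0.173 and 0.0886).

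Eif2ak3, the kinase sensor, had signals of 188, 110.0, 197, 131 and 132 in STZ liver, 173, 139, 112, 109.8 and 101 with 0.1% and 104, 130.2, 117, 135 and 116 with 0.5% phloridzin, against 206, 148, 187, 170.3 and 182 in untreated liver. Of the 3 diabetic groups, that with 0.5% phloridzin lay wholly below the untreated range. Eif2ak3 was lower with 0.1% (−0.46 ± 0.15, adjusted p = 0.0369) and 0.5% phloridzin (−0.51, adjusted p = 0.029), with −0.24 in STZ liver (limma adjusted p = 0.304). With the mean of its probe sets the 0.1% call was lost (−0.31, adjusted p = 0.056). The other probe sets in that mean had signals of 8.30 and 1.89, below the limit set for a test. Of the 31 alternatives tried, 10 lost the 0.1% call, that mean, median centring and runs with 1 array left out among them. The 0.5% call was lost in 6.

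The integrated stress genes were divided. Ddit3, a transcription factor linked to cell death under lasting stress, had signals of 98.2, 80.4, 76.4, 93.7 and 96.7 in STZ liver, 78.7, 73.1, 80.5, 82.7 and 87.4 with 0.1% and 68.1, 72.9, 71.9, 76.1 and 80.7 with 0.5% phloridzin. All lay below the 104, 109, 134, 114 and 120.1 of untreated liver. Ddit3 was called in all 3 comparisons (log2 −0.33, −0.45 and −0.55, SE 0.09 each, limma adjusted p = 0.0151, 0.00171 and 0.000386).

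Chac1, a glutathione-degrading enzyme and Atf4 target, had signals of 86.0, 18.3, 18.1, 42.7 and 30.4 in STZ liver, 67.8, 80.5, 30.4, 70.4 and 39.1 with 0.1% and 39.9, 74.7, 43.4, 56.8 and 31.3 with 0.5% phloridzin, against 65.4, 101, 68.1, 79.4 and 89.4 in untreated liver. It was 1.90-fold lower in STZ liver (log2 −0.93 ± 0.26, limma adjusted p = 0.0223), and its differences of −0.43 and −0.59 with phloridzin were not called (adjusted p = 0.273 and 0.145). The STZ signals of 18.3 and 18.1 lie near the highest array median of 17.1, where values are close to background. The STZ call was lost in 4 of the 31 alternatives tried. STZ replicate 1 again lay within the untreated range.

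Trib3, a pseudokinase and Atf4 target, went the other way. Its signals were 87.5, 90.6, 51.0, 237 and 107 in STZ liver, 126, 207, 98.9, 131 and 98.8 with 0.1% and 119, 85.1, 57.4, 155 and 84.2 with 0.5% phloridzin, against 58.1, 62.3, 58.0, 62.9 and 73.5 in untreated liver. Trib3 was 1.83-fold higher with 0.1% phloridzin (log2 0.87 ± 0.27, limma adjusted p = 0.0296), where no mouse overlapped the untreated ones, with 0.59 in STZ (adjusted p = 0.154) and 0.50 in 0.5% phloridzin liver (adjusted p = 0.235). With the mean of its probe sets the 0.1% difference was 0.70 (adjusted p = 0.0748).

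Atf4, the factor above these targets, differed by 0.21, −0.10 and 0.18 in the order STZ, 0.1% and 0.5% with no call, and a second probe set by −0.32, −0.60 and −0.27. Ppp1r15a, which reverses eIF2 phosphorylation, differed by 0.19, 0.08 and 0.36 with no call. Asns, which makes asparagine, had mean signals of 11.1 in STZ, 13.4 with 0.1% and 14.9 with 0.5% phloridzin, all under the highest array median, and 20.4 in untreated liver. It is therefore given as near background, with no fold. The amino acid response element stood in the promoters of Asns, Trib3, Chac1 and Herpud1, whose differences were of both signs.

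**Figure D3:**
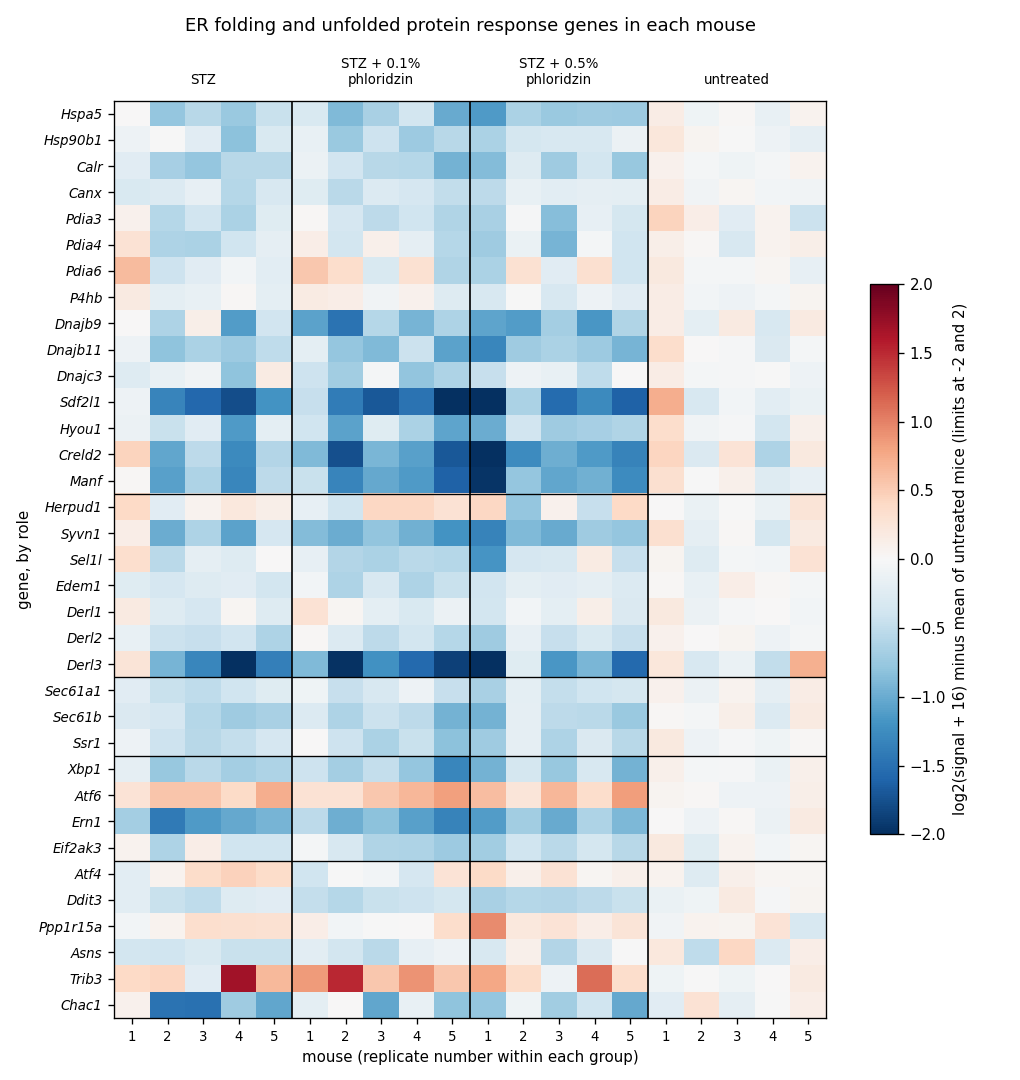
Log2(signal + 16) of the 35 genes (rows, by role) in each of the 20 mice (columns, by group), minus the mean of the untreated mice, with colour limits at −2 and 2. Lower values fill most rows of the diabetic groups, and STZ replicate 1 and 0.5% phloridzin replicate 1 stand out as high and low chaperone columns.

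Some mice were high or low for most chaperones at once. The mean log2 level of the 15 chaperones, relative to the untreated mean, was 0.03, −0.60, −0.44, −0.79 and −0.38 in the 5 STZ mice. With 0.1% phloridzin it was −0.26, −0.75, −0.54, −0.58 and −0.93, with 0.5% −1.03, −0.41, −0.67, −0.53 and −0.63, and in untreated liver 0.27, −0.06, −0.02, −0.15 and −0.03. STZ replicate 1 had the highest signal of its group for 11 of 15 chaperones, 0.1% phloridzin replicate 1 for 12, and untreated replicate 1 for 14, while 0.5% phloridzin replicate 1 had the lowest for 11. Levels of the 7 degradation genes were −0.36 ± 0.28 in STZ, −0.52 ± 0.17 with 0.1%, −0.50 ± 0.21 with 0.5% and 0.00 ± 0.16 in untreated liver (SD, n = 5 each), and those of the 6 integrated stress genes −0.11 ± 0.20, −0.05 ± 0.13, −0.05 ± 0.12 and 0.00 ± 0.06. These means are descriptions, with no test.

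**Figure D4:**
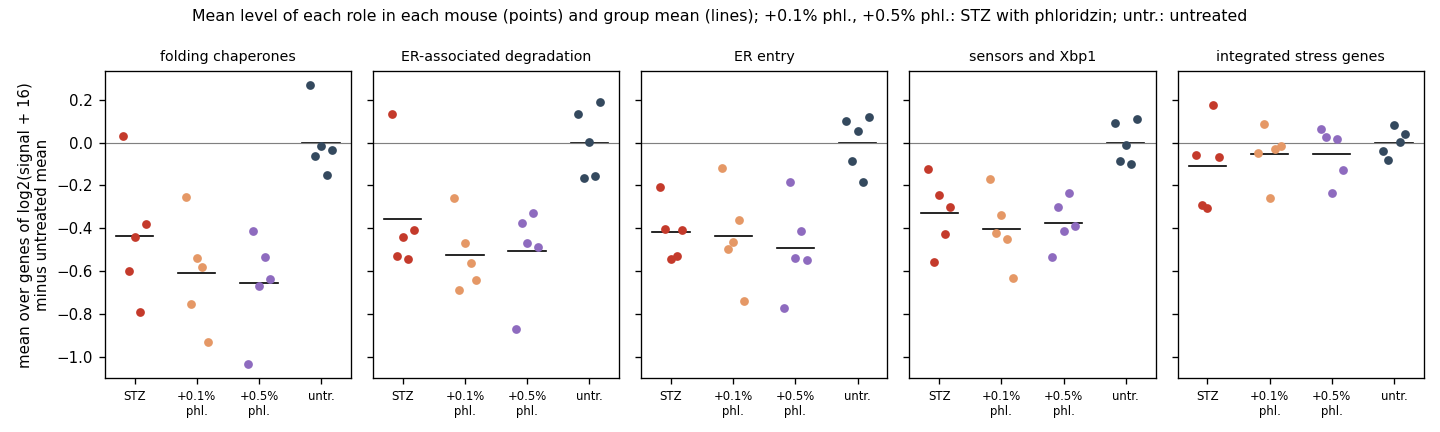
Mean over the genes of each role of log2(signal + 16), minus the untreated mean, for each mouse (points) with group means (lines), in STZ, STZ with 0.1% and 0.5% phloridzin, and untreated liver. Chaperone means of all diabetic mice except STZ replicate 1 lie below those of all untreated mice, and the integrated stress means of the groups overlap.

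The counts in STZ liver moved when single mice were left out. Without STZ replicate 1, 17 genes were lower in place of 13, and with 0.1% phloridzin replicate 4 left out as well 17 were lower in STZ and 17 with 0.1% phloridzin, in place of 20. Over all genes, 1032 were lower in STZ liver without STZ replicate 1, in place of 892. Without both arrays the all-gene counts were 1057 in STZ and 927 with 0.1% phloridzin, in place of 892 and 1163. Without untreated replicate 1, STZ replicate 4 or STZ replicate 5, the STZ count was 5. The all-gene counts lower in STZ liver fell as well, to 613, 680 and 565 in that order, in place of 892. The STZ count of the ER genes was also 5 when each array was centred on its median. That centring turned the count over all genes to 1138 higher and 509 lower, in place of 893 and 892. Of the 14 STZ calls, that of Ern1 alone held in all 31 alternatives tried. The others were lost in some, Syvn1 in 18, Dnajb11 in 10, Hspa5, Derl2 and Sec61a1 in 8 each, and Canx and Xbp1 in 6 each. Sec61b and Chac1 were lost in 4 each, Sdf2l1 in 2, and Calr, Ddit3 and Atf6 in 1 each. Of the 22 calls with 0.1% and 19 with 0.5% phloridzin, 12 and 11 held in all, and Creld2, Ddit3, Dnajb11, Dnajb9, Hspa5, Manf, Sdf2l1, Sec61b, Syvn1 and Xbp1 were held at both doses. Mice of the 2 groups compared did not overlap for 9 lower genes in STZ liver, 12 with 0.1% and 18 with 0.5% phloridzin, against 6.75%, 7.13% and 5.71% of all genes. For 1, 2 and 1 higher genes they did not overlap either, against 6.12%, 6.02% and 5.41% of all genes.

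The comparison of each phloridzin group with STZ liver asks whether the diet altered these genes in diabetic mice. With 0.1% phloridzin 0 of the 35 were called, and 0% of all 12947 genes, and with 0.5% likewise 0 of 35 and 0% (limma). An unadjusted p under 0.05 was found for 3 of the 35 in each, against 685 (5.29%) and 622 (4.80%) of all genes. Differences lay below 0 for 23 of 35 genes with 0.1% and for 28 with 0.5%, with medians of −0.11 and −0.08, against 0.00 and 0.02 over all genes. Mice of the 2 groups were free of overlap for 0 of the 35 genes at either dose, and for 0.68% and 0.842% of all genes.

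By smallest p, the genes at 0.1% were Dnajb9 (log2 −0.54, 95% interval −0.97 to −0.10), Creld2 (−0.67, −1.27 to −0.06) and Atf4 (−0.31, −0.60 to −0.03), each with a limma adjusted p of 0.921. At 0.5% they were Creld2 (−0.79, −1.39 to −0.18, adjusted p = 0.985), Ddit3 (−0.22, −0.40 to −0.04, adjusted p = 0.996) and Dnajb9 (−0.53, −0.96 to −0.09, adjusted p = 0.996). All are lower with phloridzin than in STZ liver on these arrays, and none passed the test. STZ replicate 1, with a Creld2 signal of 1054, lies far above the other 4 STZ mice. Without it the median of the 35 differences was −0.02 at both doses.

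The intervals show how large an effect the arrays could have missed. They lay within 1 log2 unit of 0 for 32 of 35 genes at 0.1% and 33 at 0.5%, with a median half-width of 0.32. For Hspa5 they ran from −0.46 to 0.18 at 0.1% and from −0.60 to 0.04 at 0.5%. For Sdf2l1 they ran from −0.94 to 0.41 and from −0.90 to 0.44. The highest bound was that of Chac1, 1.03 at 0.1% (0.49 ± 0.26) and 0.88 at 0.5% (0.33).

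**Figure D5:**
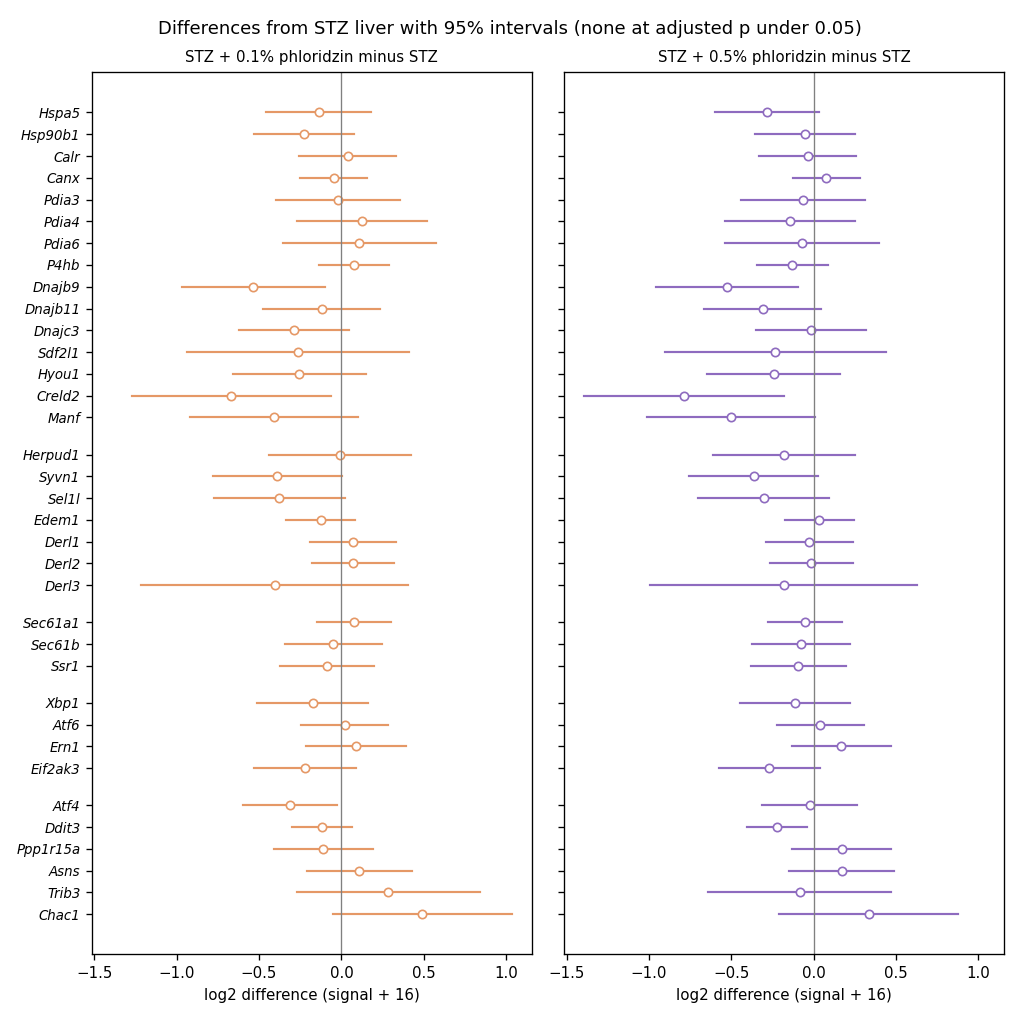
Log2 differences of the signal plus 16 from STZ liver for the 35 genes, for STZ with 0.1% (left) and 0.5% phloridzin (right), as points with 95% intervals. All points are open, since no gene had an adjusted p under 0.05, and Creld2 has the lowest value in both panels.

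Between the doses, 0 of 35 genes and 0% of all genes were called in 0.5% against 0.1% phloridzin liver, and the median difference was −0.03. Mice of the doses overlapped for all 35 genes, where 0.803% of all genes did not. One of the 35 had an unadjusted p under 0.05, against 840 of all genes (6.49%). It was Atf4, with mean signals of 675 ± 72.5 with 0.5% and 556 ± 109 with 0.1% phloridzin (log2 0.29, 95% interval 0.00 to 0.58, limma adjusted p = 0.762). P4hb (−0.21, −0.42 to 0.01) and Ppp1r15a (0.28, −0.02 to 0.58) came next. A p above the threshold does not show that the doses act alike.

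Related genes outside the 35 were counted by role, to be read against the 6.89%, 8.98% and 6.18% of all genes called lower and the 6.9%, 7.76% and 6.53% called higher in STZ, 0.1% and 0.5% phloridzin liver. Of 25 other genes of entry, signal peptide removal, glycan transfer and export, 5 (20%) were lower in STZ liver, 9 (36%) with 0.1% and 14 (56%) with 0.5% phloridzin, and 0 were higher. They included Sec11a, of the signal peptidase (log2 −0.42, −0.52 and −0.57), and Rpn1, of the glycan transferase (−0.52, −0.53 and −0.54). The list's medians were −0.23, −0.30 and −0.35. Of 21 other folding genes, 6, 5 and 5 (28.6%, 23.8% and 23.8%) were lower and 1, 1 and 0 higher, among them the ER Hsp70 relative Hspa13 (−0.61, −0.92 and −0.91), the prolyl isomerase Ppib (−0.53, −0.42 and −0.55) and Cnpy2 (−0.57, −0.64 and −0.54). The 1 gene higher in STZ liver was Ero1a, an oxidase that makes disulfide bonds (0.38, limma adjusted p = 0.0387), and with 0.1% phloridzin Sil1, an exchange factor of Hspa5 (0.26, adjusted p = 0.04). Both were named after their values were seen.

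Of 21 other degradation genes, 0 were called in STZ liver, with a median of −0.02. At 0.1% phloridzin 3 were higher (Rnf5, Erlec1 and Aup1) and 3 lower (Edem3, Ubxn4 and Ngly1), of which Aup1 and Ngly1 were named after their values were seen, and at 0.5% 1 was higher (Erlec1) and 1 lower (Ubxn4), 4.76% each and under the share of all genes. Of 14 other sensor genes, 2 were lower in STZ liver, Nfya, a subunit of NF-Y (−0.51, limma adjusted p = 0.00484), and Mbtps1, the protease that cuts Atf6 (−0.51, adjusted p = 0.0248). Nfya was also the 1 gene lower with 0.1% (−0.41) and with 0.5% phloridzin (−0.68), a share of 7.14% that is near that of all genes. Of 25 other integrated stress genes, 4, 3 and 4 (16%, 12% and 16%) were higher and 1, 2 and 1 (4%, 8% and 4%) lower. Sesn2, a stress-induced regulator of growth signals, was higher (1.14, 0.96 and 0.97), as was the lipoprotein receptor Vldlr (1.50, 1.43 and 1.63), and the hormone Fgf21 was lower (−1.96, −1.57 and −1.97).

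Markers of other cells were set beside these values, and several moved with the groups. Of 10 plasma cell markers, 5 were above the highest array median, and the sum over the list was 1527 to 3022 in STZ liver, 1853 to 1969 with 0.1% and 1614 to 2191 with 0.5% phloridzin, against 1531 to 1833 in untreated liver. That sum is mostly Sdc1, with a mean signal of 1477, which was higher in all 3 comparisons (log2 0.89, 0.67 and 0.70, limma). Of the 8 plasma cell markers tested, 7, 7 and 6 lay below 0, with medians of −0.25, −0.25 and −0.17. The antibody genes Ighm (−2.08, −1.63 and −1.91) and Jchain (−0.73, −0.78 and −0.73) were called lower in all 3. The plasma cell gene Tnfrsf17 and the B cell genes Pou2af1 and Cd79a had mean signals of 2.30, 6.55 and 9.62, below the array medians.

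Of 8 stellate cell and fibroblast markers, 3 (37.5%) were called lower in each comparison, the collagen genes Col3a1 (log2 −1.35, −1.32 and −1.44) and Col1a2 (−0.52, −0.45 and −0.41) and the growth factor receptor gene Pdgfrb (−1.11, −0.92 and −0.69). All 8 were above the highest array median, with a sum of 1406 to 2215 in STZ liver, 1381 to 2379 with 0.1% and 1456 to 2026 with 0.5% phloridzin, against 1846 to 3055 in untreated liver. The summed signal of the 8 hepatocyte markers was 59263 to 83063.5 in STZ liver, 75058 to 157108 with 0.1% and 70717 to 79878 with 0.5% phloridzin, against 81299.6 to 89550.4 in untreated liver, so that mice with 0.5% phloridzin lay wholly below the untreated mice. Of the hepatocyte markers, 1 was called lower in STZ liver, 1 higher with 0.1% and 0 with 0.5% phloridzin. Of 8 macrophage markers 1, 0 and 0 were lower and 1, 1 and 1 higher, and of 6 endothelial markers 0 were lower and 1 was higher in each. The part of these cells in the lower calls was not tested.

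Of 9 measured pancreatic acinar markers 3 were above the highest array median, and the sum over the list, mostly Cela1, was 494 to 942 in STZ, 408 to 991 with 0.1%, 419 to 1003 with 0.5% and 1504 to 2018 in untreated liver. The defining acinar genes Cpa1, Cpb1 and Ctrb1 were at means of 1.39, 2.57 and 6.09. The part of Cela1-expressing cells in the results was not tested. The bioD spike-in signal was 3097 to 3795 on STZ, 3173 to 14067 on 0.1%, 3200 to 3672 on 0.5% phloridzin and 3997 to 4794 on untreated arrays, and its part in the lower calls was not tested.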

How the data were processed

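Total liver RNA of 20 mice, 5 per group by the labels, was read on 1-colour Affymetrix mouse arrays. The authors deposited 1 intensity per probe set and array, on a linear scale, for 45101 probe sets. Dropping 2% of values at either end, their mean was 100 on each array, and the sources used here do not name the software. Left out were 64 controls, 9160 probe sets with no listed gene and 932 with several.

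From these, log2(signal + 16) was computed, with 1 probe set per gene (highest mean log2 value over 20 arrays). Genes were kept whose mean reached the 40th percentile, a signal of about 8.48. Group means were fitted over all 20 arrays with limma 3.58.1 in R 4.3.3 (lmFit, eBayes, two-sided). The residual degrees of freedom were 16, those of the prior 4.56, with p adjusted by Benjamini and Hochberg over all 12947 genes. The fit was tested on simulated data. Figures were drawn with matplotlib 3.10.9.

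The 35 genes, the related lists and the tests were chosen with earlier results of these data known, so no list count is independent evidence. All 35 are accounted for; called genes are given with values, or the 3 with the smallest p where 0 were called, and of related lists up to 4 called genes by smallest p could be named. Replicate numbers mark different mice in different groups. For that reason the numbers were not used as pairs, and a block for them was fitted as an alternative only. After removal of group means, arrays with the same number correlated between −0.41 and 0.50 (median 0.08), over 0.1 in 13 of 30 pairs. Arrays with other numbers correlated between −0.53 and 0.54 (median −0.01), over 0.1 in 31 of 120 pairs.

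Each result was recomputed with quantile normalization, with median centring, without a filter or with one at the 60th percentile, and with the probe sets of a gene averaged. Further settings were array weights, a trended robust prior, a fit to the compared groups alone, a pseudocount of 1, a block for the replicate number, and the removal of each array in turn. Leaving out 2 arrays that stood apart was added after seeing the data.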

Additional observations from a re-analysis of the deposited data

Results flagged for a closer look

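Each gene's 5 signals per group were searched for 1 mouse far from the other 4, by Dixon's test at 0.71. Of 140 groups of 5 signals, 8 held such a mouse, where chance flags about 1 in 20. Of these, 4 were 0.5% phloridzin replicate 1. Its Hspa5 signal was 2931 (others 3864 to 4155), its Canx signal 1917 (others 2371 to 2491) and its Creld2 signal 154 (others 297 to 385), all low, and its Ppp1r15a signal was high at 222 (others 119 to 133). In 0.1% phloridzin replicate 1, Sel1l was high at 644 (others 464 to 493). In untreated liver, Sdf2l1 was high in replicate 1 at 481 (others 226 to 274), Pdia4 low in replicate 3 at 232 (others 298 to 318) and Atf4 low in replicate 2 at 488 (others 608 to 638). Without 0.5% phloridzin replicate 1, 12 of the 35 genes were lower with 0.5% phloridzin than in untreated liver, in place of 18. The lower calls over all genes fell as well, to 401 in place of 800.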

How the results depend on the processing

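No difference that was called changed sign under any alternative tried. With median centring, 5 genes in place of 13 were lower in STZ liver, and 8 of the 14 calls were lost. Over all genes, 509 were then lower in STZ liver, in place of 892. With the mean of probe sets, the counts of higher genes were 0, 0 and 0 in place of 1, 2 and 1, and 5 of 14, 9 of 22 and 4 of 19 calls were lost in STZ, 0.1% and 0.5% phloridzin liver, while 1 lower gene was gained in each (Edem1, Pdia3 and Edem1). Over all genes, 762, 903 and 754 were then called higher, in place of 893, 1005 and 846. Those called lower were 853, 937 and 733, in place of 892, 1163 and 800. The cause was not tested. Without the 2 arrays that stood apart, 1 gene in place of 2 was higher with 0.1% phloridzin. Over all genes, 800 were higher there, in place of 1005. When each array was left out in turn, lower genes numbered 5 to 17 in STZ, 15 to 23 in 0.1% and 12 to 19 in 0.5% phloridzin liver, and higher genes 1 to 1, 1 to 2 and 1 to 1. The lower calls over all genes moved as well, from 565 to 1032, 772 to 1452 and 401 to 1105. Between diabetic groups the counts were 0 to 0. The highest STZ count of the 35 genes came without STZ replicate 1, the lowest without untreated replicate 1 or STZ replicate 4 or 5. With a replicate block, 0 of the 14, 22 and 19 calls were lost. Quantile normalization, the 60th percentile filter, array weights and the trended robust prior also lost 0. Without a filter or with the compared groups alone, the STZ call of Syvn1 was lost, and with a pseudocount of 1 those of Syvn1 and Dnajb11 and the 0.5% phloridzin call of Derl3. With array weights, all genes called in STZ liver were 1333 higher and 1518 lower, in place of 893 and 892, and with 0.5% phloridzin 1277 and 1333, in place of 846 and 800. Limits are 5 arrays per group, a signal near background for Asns and Derl3 and for Chac1 in some STZ mice, and total mRNA in place of spliced Xbp1.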
